A study of Mus with 2 samples.

Results

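The cells described here are collecting duct cells with Aqp2, taken by their counts from single-cell RNA-seq of newborn mouse kidney. A barcode was kept if it held at least 2000 unique molecular identifiers (UMIs, each standing for 1 captured RNA molecule) and at most 10% mitochondrial UMIs. Members were chosen by their own counts: a member held at least 3 UMIs of Aqp2 and at least 1 of Hoxb7, at most 1 each of Slc12a1, Slc34a1 and Col3a1, and none of Pecam1. Of 11369 kept barcodes, 146 were members, 87 of 6220 in replicate 1 and 59 of 5149 in replicate 2.

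Both libraries came from P0 kidneys of the mutant genotype Rbpj c/- ; Foxd1cre/+, in which 1 Rbpj allele is conditional and the other is null. Foxd1cre drives recombination in the Foxd1 lineage, which forms the interstitium of the kidney, and the ureteric bud that gives rise to the collecting duct lies outside that lineage. The design also names controls of genotype Rbpj c/+ ; Foxd1cre/+, which are not analysed here; the values therefore describe mutant kidneys and give no effect of losing Rbpj. The labels do not say how many animals each library holds; sex-linked transcripts, given at the end, show that the libraries do not come from 1 and the same animal. The p-values measure the spread between these 2 libraries only.

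The collecting duct is the last segment of the renal tubule. Its principal cells take up water through aquaporins under control of vasopressin and take up sodium through the epithelial sodium channel, whereas its intercalated cells move acid and base with a vacuolar proton pump. In the newborn kidney the duct is still growing: tips marked by Ret and Wnt11 branch in the cortex, and the stalks behind them differentiate and send signals to the surrounding interstitium and nephron progenitors.

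The markers of the label were detected in most members, Aqp2 and Hoxb7 in all of them by the rule. Aqp2 (ENSMUSG00000023013, chr15:99579056-99584545 in GRCm38.p6) encodes the water channel that vasopressin moves to the apical membrane. Summed over the members of each library it stood at 710 (replicate 1) and 655 (replicate 2) CPM (UMIs of a gene scaled to a common library total). All other kept barcodes together had 5.10 and 8.03 CPM. Hoxb7 (chr11:96285604-96290163), a homeobox factor of the ureteric lineage, had 196 and 180 CPM in members against 90.7 and 89.3 CPM in the other barcodes.

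Of the markers that the rule did not use, Gata3 (chr2:9857078-9887953), a zinc-finger factor needed for ureteric bud growth, had a UMI in 86 of 87 and 59 of 59 members. In barcodes with at least 3 Pecam1 UMIs, a marker of vessel cells, which should lack Gata3, 17 of 668 and 13 of 449 had one, at a median depth of 9900 and 10703 UMIs. Members were deeper, at a median of 51178 and 40849 UMIs, so these counts are not matched for depth. The barcodes with Pecam1 include mixed ones, since 1 of replicate 2 held 197 Aqp2 UMIs. The epithelial keratin Krt18 (chr15:102028216-102032026) had a UMI in 85 and 59 members, and Krt19 (chr11:100140810-100145926) in 72 and 46. Krt18 had 736 and 893 CPM in members against 74.5 and 79.9 CPM in the other barcodes, and Krt19 had 182 and 137 CPM against 29.3 and 20.8 CPM. Markers of several other cell types were low in members. The 7 stroma markers summed to 13.6 and 11.1 CPM, against 939 and 1027 CPM in the other barcodes. This sum includes Col3a1, which the rule held at 1 UMI or fewer in each member. The other 6 stroma markers were each lower in members. The 6 nephron progenitor markers summed to 21.0 and 18.5 CPM, against 532 and 582 CPM. The uroplakin and basal urothelial list was mixed, at 46.8 and 19.1 CPM against 15.6 and 33.8 CPM, with Krt5 at 0 in the members of both libraries. Of its 7 genes, Trp63, Upk1a, Upk3a and Upk3b were higher than in all other barcodes and Krt5 and Upk1b lower. Trp63 and Upk3a did not pass in the joint edgeR quasi-likelihood fit described below (adjusted p = 0.0523 and 0.787). Krt5 and Upk1b rested on 0 and 2 UMIs in members. Upk3b had 15.3 and 6.05 CPM in members against 2.57 and 3.07 CPM, while Upk3a had 22.0 and 1.59 CPM against 6.56 and 15.8 CPM and so went opposite ways in the 2 libraries. The distal and connecting tubule list went the other way, at 850 and 560 CPM against 113 and 102 CPM. Calb1, which the ureteric epithelium also expresses, made up 748 and 523 CPM of it, and Pvalb was at 0 in members. Of its 5 genes tested against all other barcodes, Calb1, Klk1, Slc12a3 and Slc8a1 were higher, and the part of such cells in the results below was not tested. Erythroid markers summed to 1053 and 58.9 CPM, against 18828 and 16376 CPM.

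Members made up 1.40% of kept barcodes in replicate 1 (95% Clopper-Pearson interval 1.12 to 1.72%) and 1.15% in replicate 2 (0.873 to 1.48%), a mean of 1.27 ± 0.18% (SD, n = 2). These intervals overlap and cover counting error only. By UMIs the share was 4.15% and 3.24%. Members were deeper than other barcodes, with a median of 51178 and 40849 UMIs, against 11892 and 12222. Their median mitochondrial share was 7.87% and 7.96%, against 5.11% and 5.49%. Of the barcodes that passed the gene rule and the UMI minimum, the mitochondrial limit removed 31.5% of 127 and 50.8% of 120. No member barcode occurred in both libraries, and 6 kept barcodes did.

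**Figure D1:**
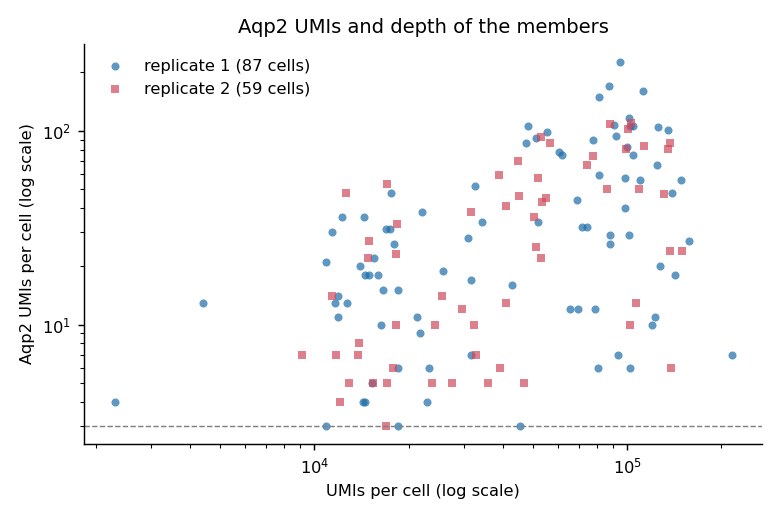
Aqp2 UMIs (vertical, log scale) against all UMIs (horizontal, log scale) for each of the 87 members of replicate 1 and the 59 members of replicate 2; the dashed line marks the minimum of 3 Aqp2 UMIs. Members with more than 50000 UMIs, 44 and 25 of them, hold from 6 to 226 and from 6 to 110 Aqp2 UMIs.

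Single members held from 3 to 226 Aqp2 UMIs in replicate 1, with a median of 27, and from 3 to 110 in replicate 2, with a median of 24. Just inside the minimum, with 3 or 4 Aqp2 UMIs, lay 7 and 2 members. Just outside it, with 1 or 2 Aqp2 UMIs and all other criteria met, lay 62 and 61 barcodes. The barcodes just outside had a different make-up: their nephron progenitor markers summed to 644 and 471 CPM, and Gata3 stood at 126 and 95.3 CPM, against 586 and 557 CPM in members.

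Each gene that the rule did not use was compared between the members and all other kept barcodes of the same library. Of 16492 genes tested with edgeR's quasi-likelihood test, 4060 were higher (24.6%) and 4752 lower (28.8%) in members at a Benjamini-Hochberg adjusted p under 0.05, so 53.4% of all genes were called. Counts for gene groups below are to be read against those shares. Since the fit had 1 residual degree of freedom, the adjusted p-values printed for this comparison come from a joint fit. That fit also held barcodes of the ureteric tip and the loop of Henle and set members against the remaining barcodes. Counts of genes called are from the first fit, and not all of those genes passed in the joint fit.

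Water channels and sodium transport genes were higher in members by large factors. Of 18 principal cell transport genes tested, 16 were higher and 2 lower, with a median log2 fold change of 3.82 against -0.06 over all genes. Aqp3, the basolateral exit channel for water, had 336 and 366 CPM in members and 6.07 and 4.84 CPM in other barcodes. Aqp4, a second basolateral water channel, had 158 and 123 CPM against 1.41 and 2.22 CPM. The members of both libraries lay far above both sets of other barcodes for each channel. Their log2 fold changes were 5.98 ± 0.09 (SE) for Aqp3 and 6.29 ± 0.11 for Aqp4, with adjusted p = 6.69e-09 and 2.61e-08 in the joint edgeR quasi-likelihood fit.

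Scnn1b, the beta subunit of the epithelial sodium channel, had 359 and 408 CPM in members against 6.90 and 7.08 CPM. Scnn1g, the gamma subunit, had 124 and 147 CPM against 2.598 and 2.774 CPM. Fxyd4, a regulator of the sodium pump, had 980 and 1072 CPM against 13.4 and 22.0 CPM. These 3 genes had close values in the members of both libraries, whereas Scnn1a, the alpha subunit, stood at 122 and 52.5 CPM. The sodium pump subunit Atp1b1 rose less, by 1.95 ± 0.07 (log2, SE). Hsd11b2, which shields the mineralocorticoid receptor from glucocorticoids, had 170 and 271 CPM against 14.4 and 15.6 CPM.

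The 2 lower genes of this list were Kcnj1, the potassium channel ROMK, and Slc12a2, a sodium-potassium-chloride cotransporter. Kcnj1 had 8.22 and 3.82 CPM in members and 9.07 and 9.09 CPM in other barcodes. It rested on 43 and 12 UMIs in members, and the count of lower genes in the list was 1 by DESeq2 and 0 without barcodes over 50000 UMIs. In the joint edgeR quasi-likelihood fit, where tip and loop barcodes are apart from the remaining ones, Kcnj1 turned direction and was higher in members, at 1.41 ± 0.36 (adjusted p = 0.00788).

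Of the vasopressin and cAMP list, the receptor stood apart from the signalling genes downstream of it. Avpr2, the vasopressin V2 receptor, had 32.7 and 20.4 CPM in members against 0.703 and 0.704 CPM, a log2 fold change of 5.21 ± 0.29 (SE; adjusted p = 2.36e-07 in the joint edgeR quasi-likelihood fit). It was detected in 50 and 25 members. Of the 15 genes tested, 4 were higher and 7 lower, and the list's median was -0.17. Adcy6, an adenylyl cyclase of the collecting duct, rose by 1.55 ± 0.10, while the phosphodiesterase gene Pde4b fell by 1.86 ± 0.21 on the log2 scale. The stimulatory G protein gene Gnas stood at 1143 and 1187 CPM in members and 1297 and 1286 CPM in other barcodes.

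Epithelial and lineage genes were higher nearly throughout. All 16 keratin and junction genes tested were higher, with a median of 2.81, and 19 of 20 transcription factors, with a median of 2.06. Among the factors, Elf5, known from principal cells, had 62.5 and 70.1 CPM in members against 1.32 and 1.40 CPM, and Gata3 rose by 4.50 ± 0.08 (adjusted p = 9.56e-09 and 1.41e-09 in the joint edgeR quasi-likelihood fit). Tfcp2l1, which is needed for the mixture of principal and intercalated cells in the adult duct, had 698 and 702 CPM against 81.4 and 78.3 CPM. Lhx1 was the 1 factor of the list that was lower, at 86.2 and 94.3 CPM against 212 and 223 CPM. Cldn8, a tight junction claudin of the distal nephron and duct, had 373 and 331 CPM against 14.0 and 12.9 CPM.

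Genes of intercalated cells were also higher in the Aqp2-gated cells, all 16 of 16 tested, with a median of 5.09. Of these, Slc4a1 did not pass in the joint edgeR quasi-likelihood fit (adjusted p = 0.0606). Foxi1, the forkhead factor that specifies intercalated cells, had 76.3 and 80.3 CPM in members against 1.19 and 0.566 CPM. Its log2 fold change was 6.42 ± 0.15 (SE; adjusted p = 1.94e-07 in the joint edgeR quasi-likelihood fit). Atp6v1g3, a subunit of the vacuolar proton pump, had 205 and 168 CPM against 5.78 and 2.27 CPM, and the ammonia channel Rhcg had 160 and 174 CPM against 2.71 and 2.99 CPM. With the members that carried intercalated markers left out, 5 list genes were higher and 3 lower. Over all 16431 genes tested there, 2783 were higher and 3435 lower. Those members were picked by 5 genes of this list, so the loss of these genes was set by the choice.

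Beyond the lists, the genes with the largest rises among those of at least 50 CPM in members included 3 secreted or cornified-envelope genes. Sprr2f had 1169 and 411 CPM in members against 16.5 and 10.1 CPM, Spink8 had 444 and 456 CPM against 7.28 and 8.74 CPM, and Crisp1 had 259 and 104 CPM against 2.110 and 2.603 CPM. Guca2a, which encodes guanylin, had 95.8 and 70.1 CPM against 1.29 and 1.49 CPM. Levels of Spink8 were close in the members of both libraries, while Sprr2f and Crisp1 were over 2-fold higher in replicate 1.

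The largest falls were in genes of blood and vessel cells. Emcn, an endothelial sialomucin, had 0.765 and 0.637 CPM in members against 96.9 and 79.3 CPM, and the fatty acid binding protein gene Fabp4 had 7.65 and 4.46 CPM against 880 and 642 CPM. Pf4, a platelet chemokine, had 3 UMIs over all members. Counted directly, the other barcodes held 163 times as much Pf4 per UMI (95% interval 55.7 to 789).

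**Figure D2:**
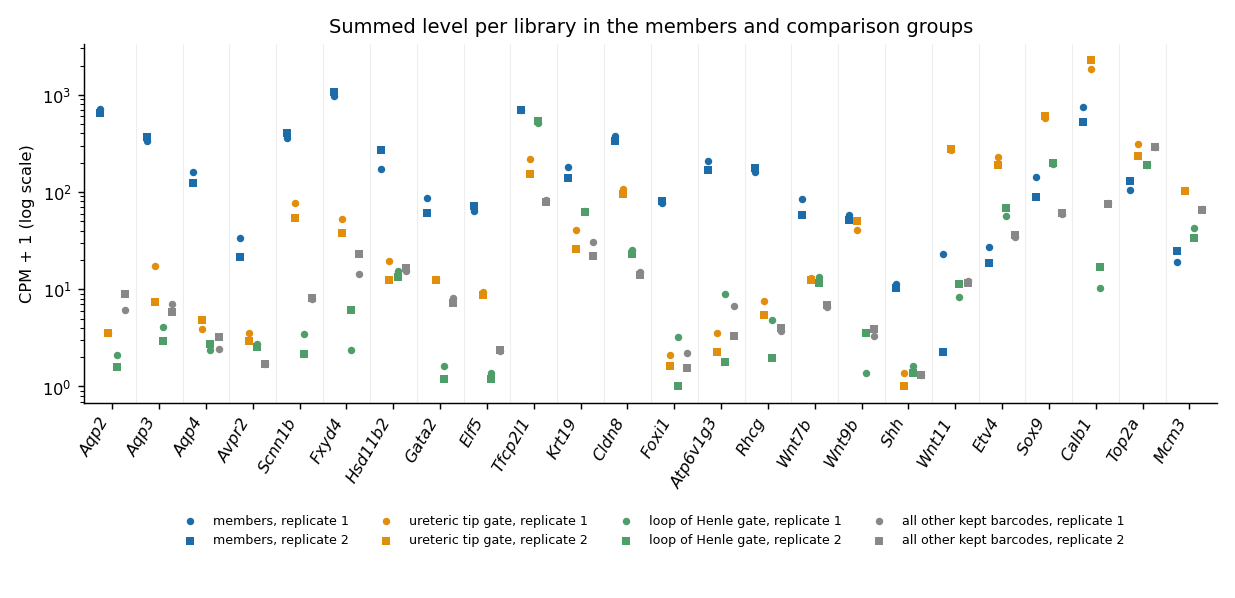
Summed level per library (CPM + 1, log scale) of 24 genes in members, the ureteric tip gate, the loop of Henle gate and all other kept barcodes; circles are replicate 1 and squares replicate 2. Aqp3, Aqp4, Scnn1b, Fxyd4, Foxi1 and Rhcg are highest in members in both libraries, and Wnt11, Etv4, Sox9 and Calb1 are highest in the ureteric tip gate.

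Among the signals that ureteric epithelium is known to send, 3 stood out in members. Wnt7b, which acts on the medullary interstitium, had 83.7 and 57.3 CPM in members and 5.53 and 5.91 CPM in other barcodes. Wnt9b, which acts on nephron progenitors, had 56.6 and 50.3 CPM against 2.30 and 2.92 CPM. Shh had 10.3 and 9.24 CPM against 0.323 and 0.299 CPM. All 3 were higher in the members of both libraries (adjusted p = 1.28e-07, 2.95e-07 and 1.01e-06 in the joint edgeR quasi-likelihood fit). Of the 17 genes in the list, 8 were higher and 7 lower, with a median of -0.07. The lower genes included Bmp4 and Wnt5a, and Pdgfb, a growth factor for mural cells, at 0.956 and 3.50 CPM against 20.4 and 16.8 CPM.

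Genes of the osmotic response were mostly higher, 6 of 8, with 1 lower. Akr1b3, the aldose reductase that makes sorbitol, had 297 and 182 CPM in members against 74.3 and 72.8 CPM. The heat shock gene Hspa1b had 42.4 and 36.3 CPM against 3.56 and 3.73 CPM. Nfat5, the transcription factor that answers to high tonicity, had 333 and 350 CPM against 130 and 138 CPM. Hspa1a and Hspa1b are near-identical copies, so the division of UMIs between them is uncertain. Heat shock genes are also induced by cell dissociation, and the mitochondrial share was higher in members; the part of either in these values was not tested.

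Rbpj is targeted in the stroma by Foxd1cre, while its null allele is part of the genotype and so also carried by members. The gene encodes the DNA-binding partner of cleaved Notch receptors. It had 37.3 CPM in the members of both libraries and 47.0 and 47.6 CPM in the other barcodes, a log2 fold change of -0.37 ± 0.10 (SE; adjusted p = 0.00698 in the joint edgeR quasi-likelihood fit). The counts come from the 3' end of transcripts, and the sources used here do not say whether the deleted part includes it, so these values do not check the alleles. Of the 18 Notch pathway genes tested, 3 were higher and 10 lower, with a median of -0.30.

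The Notch genes that were higher were Notch3, Hes1 and Nrarp. Hes1, a target of Notch in many tissues, had 290 and 248 CPM in members against 153 and 143 CPM. Notch3 had 31.5 and 35.0 CPM against 11.7 and 10.5 CPM. Nrarp, a feedback inhibitor of Notch, rose by 0.38 ± 0.12, but its adjusted p was 0.0906 in the joint edgeR quasi-likelihood fit. Hey1, also a Notch target, was lower at 3.82 and 3.50 CPM against 27.7 and 28.1 CPM, and Hes5 stood at 0.956 and 0.318 CPM against 12.2 and 12.0 CPM. Jag2 and Hey2 rested on 1 UMI each in members.

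All 18 cell-cycle genes were lower in members, with a median of -1.18. Top2a, the topoisomerase of dividing cells, had 104 and 129 CPM in members against 293 and 289 CPM, a log2 fold change of -1.36 ± 0.08 (SE; adjusted p = 7.46e-06 in the joint edgeR quasi-likelihood fit). The replication licensing gene Mcm3 had 18.2 and 23.9 CPM against 66.4 and 64.8 CPM. When each cell was thinned to 10000 UMIs, a UMI of Mki67 or Top2a was found in 27.1% of 85 and 20.7% of 58 members, and before thinning in 43.7% and 37.3%.

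Ptprc, which encodes the leukocyte antigen CD45, went against its marker list. It had 70.7 and 69.7 CPM in members and 13.6 and 11.5 CPM in other barcodes (log2 fold change 2.46 ± 0.11, SE; adjusted p = 7.22e-08 in the joint edgeR quasi-likelihood fit). A Ptprc UMI was found in 73 of 87 and 52 of 59 members. At 10000 UMIs per cell it was found in 48.2% and 56.9% of members, against 3.003% and 2.459% of the barcodes with Pecam1. The myeloid markers were at or near 0 in members: Lyz2 had 0 and 0.637 CPM, Tyrobp 0.191 and 0.318 CPM, C1qa 0.765 and 0.637 CPM and C1qb 0.765 and 0.318 CPM. Cd74, the sixth marker of the list, had 4.21 and 6.37 CPM against 21.5 and 30.5 CPM in other barcodes. In the barcodes with Pecam1, Ptprc stood at 7.81 and 8.72 CPM, and before thinning was found in 21 of 668 and 9 of 449. The ureteric tip gate described below had 39.8 and 40.7 CPM.

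**Figure D3:**
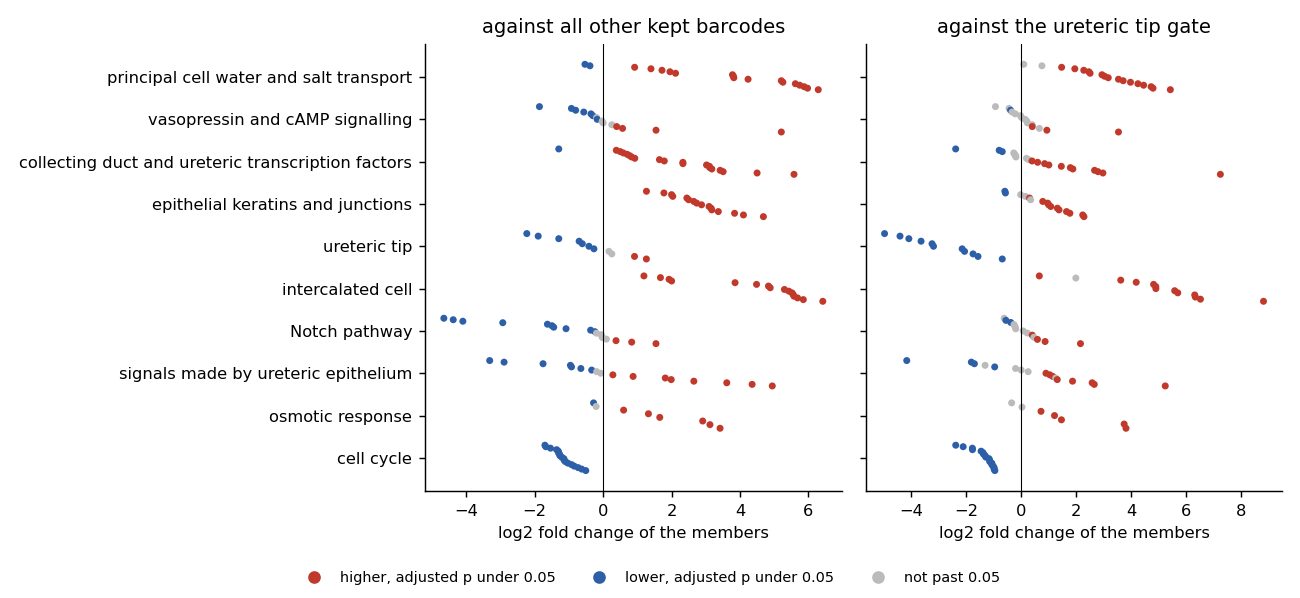
Log2 fold change of each tested gene of the 10 lists, members against all other kept barcodes (left) and against the ureteric tip gate (right), coloured by direction and adjusted p from edgeR; genes used by the rule and Ret are not drawn, and fitted values of genes with few UMIs in 1 group, such as Foxa1 in the tip gate, are no measure of size. Intercalated, keratin and cell-cycle genes each lie on 1 side of 0 on the left, and on the right the 11 tip genes lie below 0.

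Which genes part these cells from the growing tips of the same epithelium was asked with a ureteric tip gate of barcodes with at least 2 Ret UMIs, at most 2 of Aqp2 and at least 1 of Hoxb7, with the same exclusions. It held 49 and 42 barcodes with a median of 38994 and 24154 UMIs. Of 12362 genes tested with edgeR, 2273 were higher (18.4%) and 2285 lower (18.5%) in members, 36.9% in both directions. Transport and intercalated genes were higher in members, and genes of the branching programme were lower, beside a cell-cycle list that was lower throughout.

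Of 18 principal cell genes, 16 were higher than in the tip gate and none lower, with a median of 3.10 against 0.02 over all genes. Aqp4 had 2.95 and 3.82 CPM in the tip gate against 158 and 123 CPM in members, a log2 fold change of 5.42 ± 0.21 (SE; edgeR adjusted p = 1.43e-07). Aqp3 had 16.2 and 6.36 CPM in the tip gate and rose by 4.79 ± 0.21, and Fxyd4 had 51.6 and 36.9 CPM and rose by 4.45 ± 0.21. Scnn1b was already at 76.2 and 52.8 CPM in the tip gate, well above the 6.90 and 7.08 CPM of all other barcodes. Of 13 intercalated genes tested, 12 were higher than in the tip gate, and Foxi1 had 1.10 and 0.636 CPM there. The count of intercalated genes fell to 4 without the members that carried intercalated markers, where 1745 of all 11803 genes tested were higher. Since 5 genes of this list picked those members, part of the fall was set by the choice.

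All 11 genes of the tip list that the gate did not use were lower in members, with a median of -3.18. Wnt11, a signal of the tip to nephron progenitors, had 269 and 274 CPM in the tip gate and 21.8 and 1.27 CPM in members, a log2 fold change of -4.39 ± 0.41 (SE; edgeR adjusted p = 2.11e-05). The retinol receptor gene Stra6 was lower too, with 71.1 and 93.5 CPM in the tip gate and 4.21 and 1.27 CPM in members. For both Wnt11 and Stra6 the members of replicate 1 stood above those of replicate 2, and the groups did not overlap. Sox9, a factor of tip and early duct cells, fell by 2.37 on the log2 scale.

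The collecting duct factors were mixed. Gata3 had 320 and 298 CPM in the tip gate and 586 and 557 CPM in members. Of 20 factors, 11 were higher, 3 lower and 6 did not pass. Elf5 rose by 2.97 ± 0.19 and Gata2 by 2.67 ± 0.19. Foxa1 had no UMI in the tip gate and 36 in members, at least 6.15-fold higher when the tip gate is set at the floor of 3 counts over both libraries. Of the keratins and junction genes, 11 were higher and 2, Cldn3 and Epcam, lower.

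The signals of the duct differed in whether the tip shared them. Wnt9b had 40.1 and 49.6 CPM in the tip gate against 56.6 and 50.3 CPM in members and did not pass the test. Wnt7b had 12.2 and 11.4 CPM in the tip gate and rose by 2.58 ± 0.18 (SE; edgeR adjusted p = 3.39e-06). Shh had 1 UMI in the tip gate and 83 in members, a direct ratio of 42.5 (95% interval 7.42 to 1700). Lcn2 was lower, with 507 and 716 CPM in the tip gate and 56.4 and 8.60 CPM in members. Of 7 osmotic genes tested, 5 were higher and none lower.

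Of 13 Notch genes tested against the tip gate, 4 were higher and 2 lower, with a median of 0.08. Rbpj had 49.3 and 59.1 CPM in the tip gate and fell by 0.55 ± 0.13 on the log2 scale (SE; edgeR adjusted p = 0.00806). Nrarp rose by 0.87 ± 0.19 and Dll1 by 2.16 ± 0.48. With DESeq2, 2 Notch genes were higher and none lower, and without the members that carried intercalated markers 1 was higher and 1 lower. Dll1 stood at -0.49 when the tip gate took barcodes with 1 Ret UMI. All 18 cell-cycle genes were lower in members, with a median of -1.22. At 10000 UMIs per cell, a UMI of Mki67 or Top2a was found in 72.3% of 47 and 59.5% of 42 tip barcodes, and before thinning in 83.7% and 73.8%.

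The loop of Henle is the nephron segment next to the duct in the medulla, and its gate held 165 and 149 barcodes with at least 3 Slc12a1 UMIs. They also held at most 2 Aqp2 UMIs and met the limits set for members on Slc34a1, Col3a1 and Pecam1. Of 12363 genes tested with edgeR, 1861 were higher (15.1%) and 1426 lower (11.5%) in members, 26.6% in both directions. Principal cell genes were higher in members for 15 of 18, whereas 3 were lower, Atp1b1 and Kcnj1 among them. Fxyd4 had 1.37 and 5.05 CPM in the loop gate and rose by 8.49 ± 0.26 (SE; edgeR adjusted p = 3.62e-09), and Scnn1g rose by 8.12 ± 0.23. Crisp1 had no UMI in the loop gate, which puts it at least 881-fold higher in members with the floor of 3 counts over both libraries.

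The genes that were lower against the loop gate included its own segment factors. Irx2 had 175 and 225 CPM in the loop gate and 0.765 and 0.318 CPM in members, and Irx1 had 417 and 556 CPM against 4.40 and 1.59 CPM. Umod, the main protein of urine, had 149 and 320 CPM against 1.72 and 0.318 CPM. Among osmotic genes Slc5a3, the myo-inositol transporter, was lower in members, with 180 and 170 CPM in the loop gate against 36.7 and 25.8 CPM. Of 13 Notch genes, 4 were higher and none lower. Nrarp had 9.25 and 7.58 CPM in the loop gate and rose by 1.84 ± 0.17 (SE; edgeR adjusted p = 1.29e-05). The same members enter this and both earlier comparisons, whose fold changes are therefore not independent. All 12 cell-cycle genes that passed of 18 were lower, and 6 passed without the members that carried intercalated markers.

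A distal tubule gate with at least 2 Slc12a3 UMIs, at most 2 of Aqp2 and 1 of Ret, and the same exclusions as members, was not tested. This gate held 3 and 5 barcodes. The distal tubule gate had no Fxyd4 UMI in either library. Gata3 stood at 190 and 161 CPM in it, against 586 and 557 CPM in members.

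The members were then compared among themselves. Those of each library were ranked by their share of Aqp2 UMIs and cut into 3 groups of near-equal size, so that Aqp2 itself is a description. The high group held 29 and 19 members and the low group 29 and 19. Of 9900 genes tested with edgeR, 257 were higher (2.6%) and 275 lower (2.78%) in the high group, 5.37% of all in both directions. Members with more Aqp2 held more of other principal cell transcripts, more Wnt7b and Wnt9b, and far fewer cell-cycle transcripts.

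Of 16 principal cell genes tested, 8 were higher in the high group and none lower, with a median of 0.79 against -0.01 over all genes. Aqp4 had 433 and 200 CPM in the high group and 36.1 and 51.6 CPM in the low group, a log2 fold change of 2.89 ± 0.33 (SE; edgeR adjusted p = 0.0011). Fxyd4 had 2152 and 1397 CPM against 340 and 652 CPM, a change of 1.93 ± 0.30 (edgeR adjusted p = 0.00488). The groups did not overlap for either gene, and the gap was wider in replicate 1. Avpr2 had 66.1 and 21.4 CPM in the high group and 15.7 and 14.2 CPM in the low group. Krt19 had 379 and 215 CPM against 104 and 73.9 CPM (edgeR adjusted p = 0.00121), 1 of 4 keratin and junction genes that were higher.

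Sox9 ran the other way, with 28.6 and 45.2 CPM in the high group and 244 and 150 CPM in the low group (-2.39 ± 0.29, SE; edgeR adjusted p = 0.00131). Of 18 cell-cycle genes, 16 were lower in the high group, with a median of -3.85. Top2a had 2.68 and 7.14 CPM in the high group and 167 and 312 CPM in the low group (-5.60 ± 0.56, SE; edgeR adjusted p = 0.000391). In replicate 1, 280 of the 384 Top2a UMIs of the low group came from the 4 members with most Ret, and the group stood at 62.1 CPM without them. Without all members with at least 2 Ret UMIs, the change of Top2a was -5.32 (edgeR adjusted p = 0.0194), and 11 cell-cycle genes were lower. Ube2c, which drives mitotic exit, had 3.57 and 5.95 CPM against 199 and 202 CPM. At 10000 UMIs per cell, a UMI of Mki67 or Top2a was found in 41.4% and 36.8% of low-group members and in 3.70% and 5.26% of high-group members. Before thinning the shares were 65.5% and 52.6% against 24.1% and 21.1%.

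**Figure D4:**
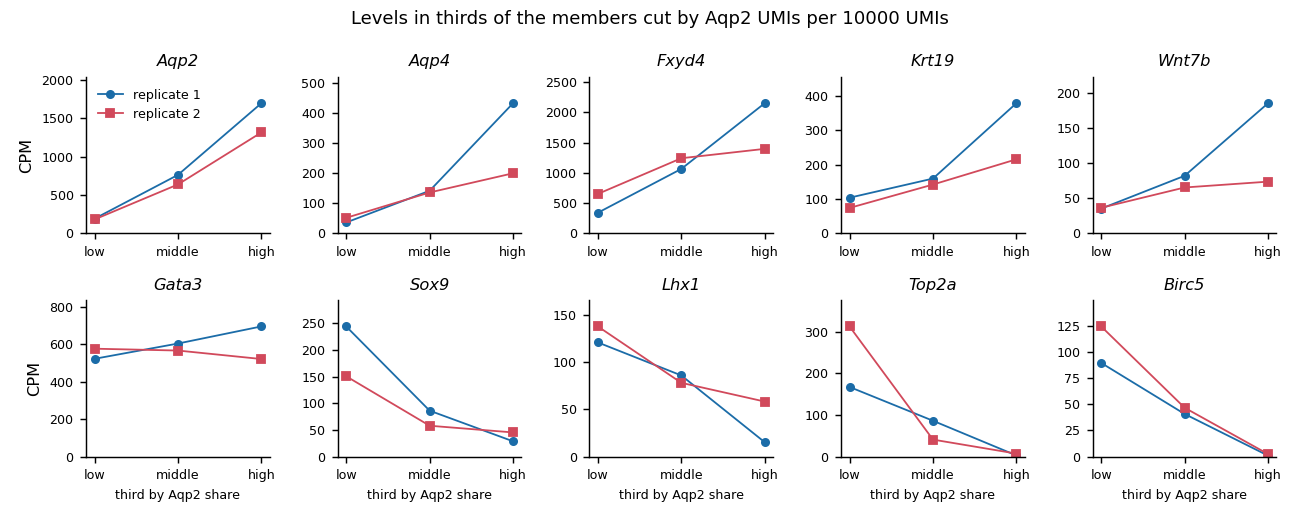
Summed level (CPM, vertical, from 0) of 10 genes in the members with the lowest, middle and highest share of Aqp2 UMIs, for replicate 1 (circles) and replicate 2 (squares). Aqp4, Fxyd4, Krt19 and Wnt7b are higher in the high group than in the low group in both libraries, Sox9, Lhx1, Top2a and Birc5 are lower, and the 2 libraries go in opposite directions for Gata3.

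Depth differed between these groups in opposite ways in the 2 libraries: the median was 80839 UMIs in the low group and 17927 in the high group of replicate 1, and 36013 and 40941 in replicate 2. With the groups cut separately within shallow and deep members, 16 cell-cycle genes were again lower. Without barcodes over 50000 UMIs, where 5166 genes could be tested, 30 genes were higher and 45 lower, 2 of them cell-cycle genes, and no keratin, osmotic or signal gene was higher. Aqp4, Fxyd4 and Sox9 passed there too, at 1.97, 1.07 and -2.41.

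Of the remaining lists, 3 signals were higher in the high group. Wnt7b had 186 and 73.8 CPM against 35.3 and 36.5 CPM, and Wnt9b had 113 and 67.8 CPM against 26.6 and 25.8 CPM. The third was Wnt4. None of 10 Notch genes passed with edgeR or with DESeq2, and 1 of them had an unadjusted edgeR p under 0.05. Of 6 tip genes, 4 were lower and none higher, but Etv4, Etv5 and Dusp6 did not pass without the members that held Ret. Haemoglobin genes led the rises, and this rested on 1 member of replicate 1, which held 2610 of the 2671 Hbb-bs UMIs of the high group there. Hbb-bs had 2385 and 47.6 CPM in the high group and 51.4 and 22.3 CPM in the low group. Its log2 fold change went from 4.22 to 0.50, with an edgeR adjusted p of 0.35, when that member and a second haemoglobin-rich one of the middle group were left out.

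The single members fell largely to 1 side or the other by Fxyd4 and Calb1, a calcium-binding protein of the ureteric epithelium and connecting tubule. These sets were drawn after the values were seen, so what follows is a description with no test. More Fxyd4 than Calb1 UMIs were found in 61 and 39 members, more Calb1 than Fxyd4 in 25 and 19, and 1 member in each library had equal numbers. Across members the shares of both genes had Spearman correlations of -0.59 (n = 87 cells) and -0.57 (n = 59 cells), where cells of 1 library share their preparation and differ in depth.

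Genes that the split did not use differed widely between the sets. Aqp4 had 274 and 216 CPM in the Fxyd4 set and 0.904 and 1.48 CPM in the Calb1 set, where it rested on 2 UMIs in each library. Wnt7b had 140 and 99.1 CPM against 8.14 and 2.95 CPM. Wnt9b had 90.0 and 89.0 CPM against 11.8 and 0 CPM. Nearly all UMIs of these 3 genes were thus in the Fxyd4 set. Krt19 had 295 and 227 CPM against 30.3 and 20.7 CPM, Gata2 had 133 and 96.3 CPM against 24.9 and 11.1 CPM, and Elf5 had 96.7 and 114 CPM against 16.7 and 12.5 CPM.

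Aqp3, Hoxd10 and Oxgr1 were higher in the Calb1 set in both libraries. Aqp3 had 313 and 197 CPM in the Fxyd4 set and 367 and 588 CPM in the Calb1 set, and Scnn1b had 407 and 357 CPM against 294 and 475 CPM. Hoxd10, a posterior homeobox gene, had 21.7 and 18.6 CPM against 97.2 and 117 CPM. Oxgr1, the 2-oxoglutarate receptor, had 4.67 and 2.25 CPM against 28.04 and 19.19 CPM. Aqp2 itself was lower in the Calb1 set, with 277 and 588 CPM against 1032 and 706 CPM in the Fxyd4 set. Median depth was 32559 and 32418 UMIs in the Fxyd4 set and 93555 and 50466 in the Calb1 set. At 10000 UMIs per cell, a UMI of Mki67 or Top2a was found in 11.7% and 12.8% of the Fxyd4 set and in 54.2% and 42.1% of the Calb1 set. In replicate 1 the Calb1 set also held the 4 members with most Ret, 97 of the members' Ret UMIs against 14 in the Fxyd4 set, and 73 Slc12a3 UMIs against 3. In replicate 2 it held no Ret UMI and 7 Slc12a3 UMIs, against 5 and 3. The part of tip and distal tubule transcripts in these differences was not tested.

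**Figure D5:**
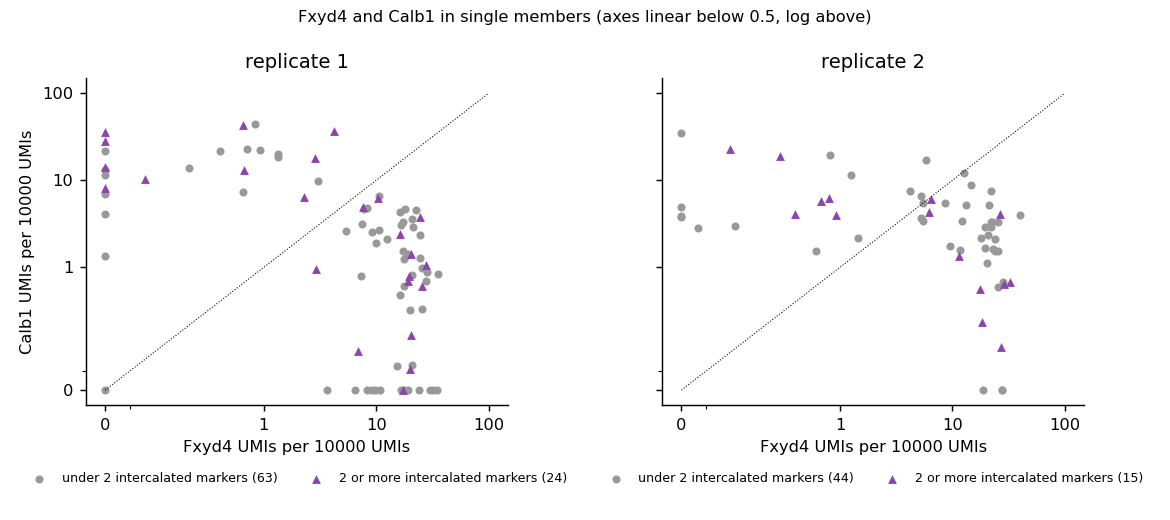
Fxyd4 (horizontal) and Calb1 (vertical) UMIs per 10000 UMIs in each member of replicate 1 (left) and replicate 2 (right); axes are linear below 0.5 and logarithmic above, the dotted line marks equal shares, and triangles are members with 2 or more intercalated markers. Most members lie far from the dotted line, and triangles occur on both sides of it.

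A minority of members carried several intercalated transcripts. At least 2 of the 5 markers Foxi1, Atp6v1g3, Atp6v0d2, Slc4a1 and Slc26a4 had a UMI in 24 members of replicate 1 (27.6%) and 15 of replicate 2 (25.4%). At 10000 UMIs per cell the shares were 21.2% and 13.8%, against 0 of 47 and 0 of 42 tip barcodes (95% Clopper-Pearson upper bounds 7.55% and 8.41%) and 0% and 0.41% of barcodes with Pecam1. In the marked members Atp6v1g3 had 503 and 437 CPM, and 0 and 0.517 CPM in the unmarked ones, which the split itself sets. Of genes that the split did not use, the ammonia channel Rhbg had 97.5 and 97.2 CPM in marked members and Dmrt2, a factor of acid-secreting intercalated cells, 43.1 and 44.8 CPM. In the unmarked members Rhbg had 14.5 and 23.2 CPM and Dmrt2 had no UMI. Rhcg was found in both sets, at 250 and 235 CPM in marked and 98.5 and 136 CPM in unmarked members. The markers that defined the set were chosen with these values known, so this is a description.

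The same barcodes held principal cell transcripts, of which Aqp2 was set by the rule. Aqp3 had 482 and 549 CPM in the marked members and 235 and 252 CPM in the unmarked ones, and Scnn1b 490 and 499 CPM against 269 and 352 CPM. Aqp2 had 856 and 722 CPM in the marked members and 609 and 613 CPM in the unmarked ones. A marked member held a median of 80 Aqp2 UMIs in replicate 1 and 50 in replicate 2. Median depth was 98357 and 77556 UMIs in marked members and 22960 and 29590.5 in unmarked ones, and Scrublet, a doublet caller, marked 0 of 24 and 1 of 15 of them as doublets. Whether they are single cells with both programmes or droplets of 2 cells cannot be told apart from these counts. Of all kept barcodes with at least 5 Foxi1 UMIs, 31 and 20, members made up 20 and 16.

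Type-specific anion exchangers were sparse in the marked members. Slc4a1, the exchanger of acid-secreting cells, had 16.4 and 4.98 CPM, Slc26a4, the pendrin gene of base-secreting cells, had 7.03 and 0.830 CPM, and Slc4a9 had 30.0 and 23.3 CPM. In the unmarked members Slc4a9, which the split did not use, had 0.646 and 0.517 CPM. In replicate 1 the marked members also held 34.7 CPM of Slc12a3 and 151 CPM of Klk1, genes of distal and connecting tubule, against 4.15 and 3.32 CPM in replicate 2.

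Ret and Wnt11 were found in few members, Ret in 14 and 4 and Wnt11 in 7 and 4, while Lcn2 was found in 29 and 12. In replicate 1, 4 cells held 82.0% of all Ret UMIs, 97.4% of Wnt11 UMIs and 79.3% of Lcn2 UMIs of the members; in replicate 2, with 27 Lcn2 UMIs, 4 cells held 51.9% of them. At least 2 Ret UMIs were found in 9 members of replicate 1 and 1 of replicate 2. The 9 had a median of 127738 UMIs, 300 CPM of Aqp2 and 938 CPM of Calb1.

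Between the libraries the members were alike in most genes. Of 3685 genes with at least 50 CPM in 1 library, 29 (0.787%) differed by over 2-fold with 95% Poisson intervals that did not overlap, 19 higher in replicate 1 and 10 in replicate 2. With 1 library on each side there was no test, and the intervals cover counting error only. Xist, expressed from the inactive X chromosome, stood at 1010 CPM in replicate 1 against 0.318 CPM in replicate 2, while the Y-linked genes Ddx3y and Eif2s3y had 0 UMIs in replicate 1 and 68.8 and 62.7 CPM in replicate 2. Sex-linked transcripts thus differ together with everything else that differs between the libraries.

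Some differences rested on few cells. Klk1 stood at 63.7 and 1.59 CPM, with 94.9% of its replicate 1 UMIs in 2 members, and 2 members held 92.3% of the Hbb-bs UMIs. Others were spread over members: Jun, an immediate early factor, had 131 and 306 CPM with UMIs in 68 and 56 members. Cdkn1a, a cell-cycle inhibitor gene named here after its values were seen, had 101 and 230 CPM with UMIs in 66 and 52 members. Ethe1 had 84.3 and 214 CPM, in 72 and 56 members. Without barcodes over 50000 UMIs, 82 genes differed in place of 29.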

How the data were processed

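The 2 mutant libraries of newborn mouse kidney were analysed. The deposited matrices hold raw UMI counts per gene and barcode from 10x Chromium 3' libraries, aligned to mm10 with Cell Ranger (6.0.1 per the submitters' processing notes, 4 per the file headers). They held 163405630 and 135436576 UMIs over 2720964 and 2654938 barcodes, of which 6910 and 5917 had at least 2000 UMIs and 6220 and 5149 also passed the mitochondrial limit. No empty-droplet model was applied; doublets were marked with Scrublet (scanpy 1.11.5) and kept.

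UMIs were summed per library and group and tested with edgeR 4.0.16 (quasi-likelihood, TMM, filterByExpr, library as block, Benjamini-Hochberg adjusted p under 0.05); DESeq2 1.42.0 was an alternative. The library is the block because both groups of a comparison come from each library. Rule genes were described, not tested. Named genes were the rule and marker genes, up to 4 passing genes per list with the largest change, 10 rises of at least 50 CPM and 5 falls against all other barcodes, 5 each way in the other comparisons, and other list genes for their role. Members, gene lists and rules were chosen with earlier results of these data known. On simulated counts with 200 changed genes the fit was checked before use. The 28693 features included 23507 whose symbols matched RefSeq (GRCm38.p6). Some genes named by the rule are not reported here.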

Additional observations from a re-analysis of the deposited data

How the results depend on the processing

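Members made up 1.15 to 1.40% of kept barcodes when either replicate was left out. The mean share was 1.95% with a mitochondrial limit of 20%, 0.0954% with 5%, 0.979% with at least 10 Aqp2 UMIs, 0.931% with Slc12a1, Slc34a1 and Col3a1 at 0, and 0.729% without barcodes over 50000 UMIs. The 5% limit left 4 and 1 members, so the comparisons were not run there. With DESeq2, genes higher and lower numbered 2446 and 2873 against all other barcodes, 1231 and 1251 against the tip gate, 937 and 632 against the loop gate, and 92 and 116 between the Aqp2 groups. Without barcodes over 50000 UMIs they numbered 2014 and 2849, 1202 and 1040, 1038 and 816, and 30 and 45, and 82 genes differed between libraries. Without the members with intercalated markers 1425 genes were lower than in the tip gate. Between the Aqp2 groups, 409 genes were higher with at least 10 Aqp2 UMIs, 117 with members cut into 2 groups, 758 higher and 665 lower at the 20% limit, 506 and 584 with no filter on low counts, and 144 and 119 without members with Ret.

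Without the replicate block, genes higher and lower numbered 3763 and 4338 against all other barcodes, 2049 and 2049 against the tip gate, 1571 and 1069 against the loop gate, and 198 and 249 between the Aqp2 groups. Of 2327 values of 179 named gene results under alternatives that keep both libraries, 2213 kept direction and side of the threshold and 108 no longer passed. Leaving out 1 library gave 355 further values with no test, of which 220 moved by more than 1 SE of the fit with both libraries and none changed sign. The 6 that changed sign were Oxgr1 against all other barcodes without intercalated-marker members (-0.43), Prkacb against the tip gate without barcodes over 50000 UMIs (0.14), Dll1 with a tip gate of at least 1 Ret UMI (-0.49), and between the Aqp2 groups Hba-a2 with groups cut within shallow and deep members (-0.18), Slc4a9 with the excluded genes at 0 (-1.20) and Akr1b3 without barcodes over 50000 UMIs (-0.32). The cause was not tested. The 20% limit was added after seeing the data, as were leaving out haemoglobin-rich, Ret or intercalated-marker members, the cut within depth and the joint fit. Low genes such as Kcnj1 and Shh rest on few UMIs, and the part of depth in their values was not tested.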

Other observations

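The reporter transcript EYFP was counted in the libraries and is not part of any comparison above. It stood at 6.88 and 5.41 CPM in members, 5.16 and 5.72 CPM in the ureteric tip gate and 64.0 and 59.8 CPM in all other kept barcodes.

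Barcodes outside the members that carried at least 2 of the 5 intercalated markers, Foxi1 among them, numbered 17 and 5. Their median depth was 40206 and 29788 UMIs. UMIs of Aqp2 were found in 6 and 4 of them. They held 68 Aqp2 UMIs in replicate 1 and 254 in replicate 2, of which 1 barcode held 197.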
